A study of Mus musculus with 12 samples.

Results

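Oxidative phosphorylation is carried out by 5 protein complexes of the inner mitochondrial membrane, and the nuclear genes for their subunits were examined in hippocampal RNA of 5xFAD and wild-type (WT) mice. Rows were chosen by gene name, with the patterns Nduf followed by a, b, c, s or v and a digit, Sdha to Sdhd, names starting with Uqcr or Atp5, Cyc1, and Cox4 to Cox8. Of 24318 genes in the CG table, 85 matched. Atp5s and Atp5sl carry a matching name but are not counted as subunits of the enzyme here, which left 83 genes: 35 of complex I, 4 of complex II, 9 of complex III, 20 of complex IV and 15 of complex V. Subunit genes under other names fall outside these counts. Ndufab1 of complex I and Usmg5 and 2010107E04Rik of complex V were examined in a list of carriers and partners. Ndufa4 and its paralog Ndufa4l2 were placed with complex IV, where the Ndufa4 protein is now counted, and Cox7a2l, a partner of supercomplexes, was kept with the same complex. Subunits encoded by mitochondrial DNA were not analysed here, because none of the 13 listed names occurs in the table. The gene table was called CG and the junction table AT, after title prefixes that the labels do not spell out.

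The 4 groups used were taken at 7 months of age: 5xFAD and WT hippocampus under CG, and 5xFAD and WT hippocampus under AT, with 3 libraries each. 5xFAD mice carry transgenes with mutations of familial Alzheimer's disease, human APP among them, driven in neurons by Thy1 regulatory sequence, and the WT mice carry none. The CG libraries gave FPKM, in which fragments are divided by gene length and by the size of the library, so levels of different genes can be set side by side as shares of a library. The AT libraries gave signal at back-splice junctions, where the end of one exon is joined to the start of an earlier one in a circular RNA. The labels do not say that the libraries come from separate animals, so a p-value here reflects how far these libraries scatter, and that scatter may be technical. Sex is not stated in the labels, and in bulk tissue fewer cells of a type cannot be told apart from less RNA per cell.

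Electrons from NADH enter at complex I and those from succinate at complex II. Complex III passes them to cytochrome c, complex IV hands them to oxygen, and complex V uses the proton gradient to make ATP. Neurons rely on this route to pay for ion pumping and synaptic transmission, and reduced complex IV activity has long been discussed in Alzheimer's disease tissue.

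One library went against its label. Thy1, whose regulatory sequence drives the transgenes, was at 1136, 1172 and 305 FPKM in the libraries labelled 5xFAD replicates 1 to 3, against 296, 308 and 340 FPKM in WT replicates 1 to 3. Cst7, a protease inhibitor of plaque-associated microglia, was at 49.7, 42.4 and 0.250 FPKM in 5xFAD, against 0.288, 0.243 and 0.295 FPKM in WT. Both genes put the library labelled 5xFAD replicate 3 at WT levels, as did Trem2 and Gfap. Calls and group medians of the genotype comparison are therefore given with and without it. Overlap counts, paralog shares and most single-gene differences are given over the 6 libraries only and so include it. A pair of WT libraries also stood apart. The 6 choroid plexus markers summed to 2883 FPKM in WT replicate 1 and to 500.4 FPKM in the library labelled 5xFAD replicate 3. In the other 4 libraries they summed to between 45.6 and 76.1 FPKM. WT replicate 2 had the lowest relative depth, 0.794 times that of WT replicate 1 as judged from ratios of low FPKM values, against 0.980 to 1.15 in the other 4. How many reads lie behind the CG values is unknown.

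The subunit genes took about the same share of each library in both genotypes, within the spread of the WT libraries. Their summed level was 12758, 12502 and 11384 FPKM in 5xFAD replicates 1 to 3, against 13903, 9914 and 12867 FPKM in WT replicates 1 to 3. These sums made up 3.10%, 3.07% and 2.89% of total FPKM in 5xFAD and 3.37%, 2.57% and 3.15% in WT. The lowest and the highest sum were both in WT libraries, so the 5xFAD range lay inside the WT range. The median subunit gene averaged 97.1 FPKM over the 6 libraries, against 9.18 FPKM for the median of the 14500 genes tested.

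**Figure D1:**
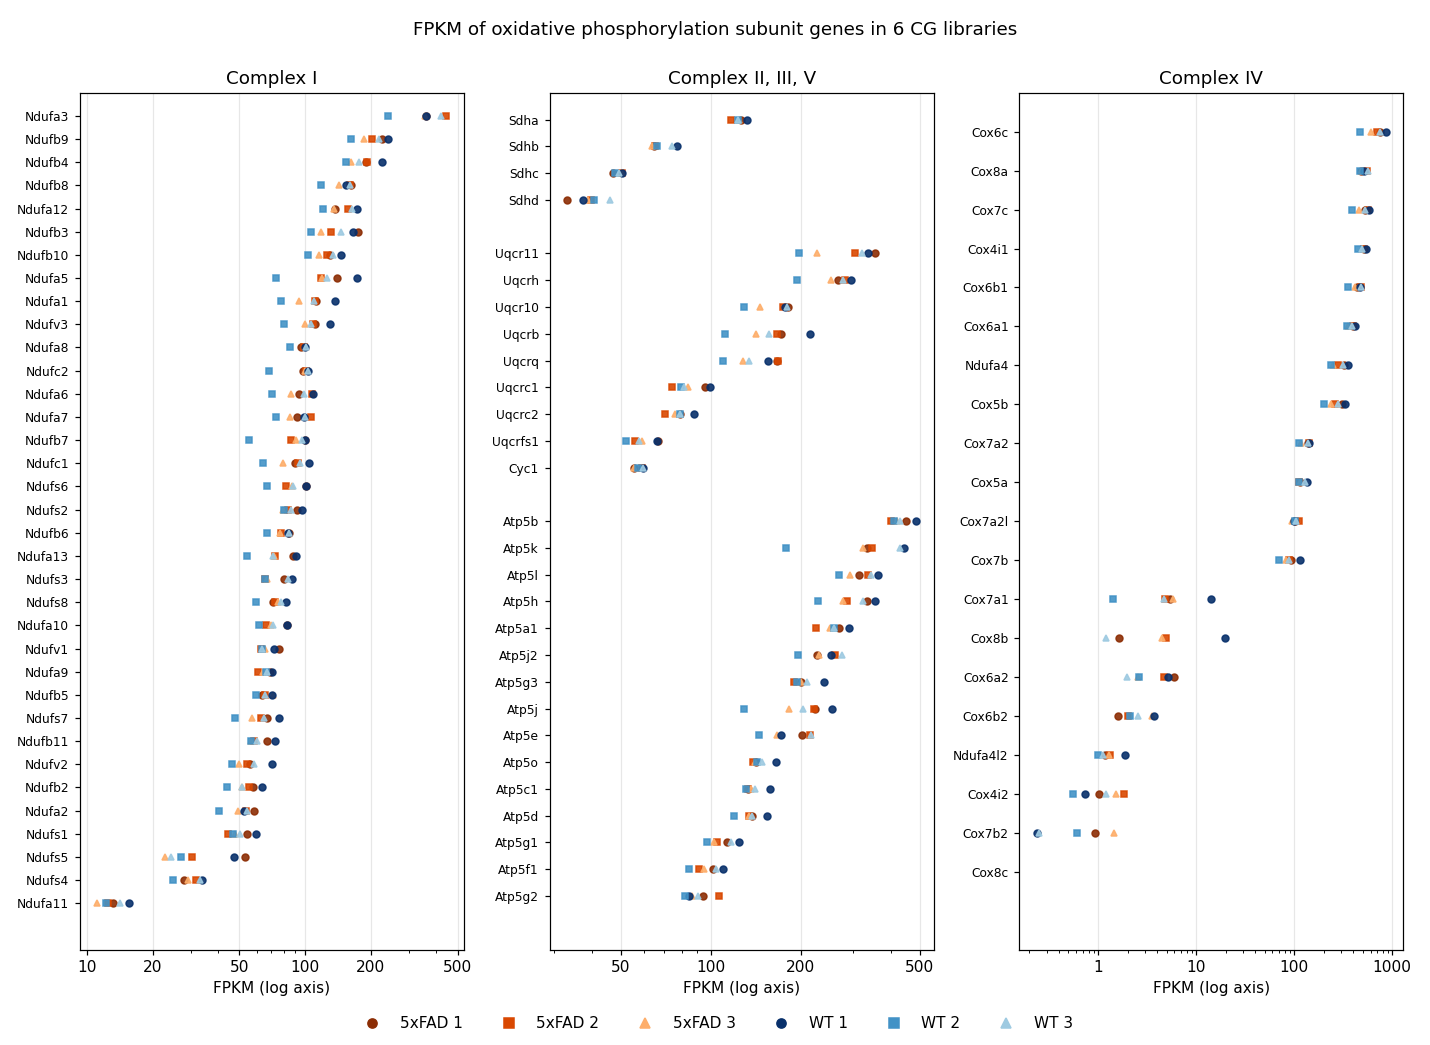
Level of each subunit gene in the 6 CG libraries, in FPKM on a log axis, with 5xFAD libraries in orange and WT libraries in blue, ordered by mean level within each complex. WT replicate 1 (dark blue circles) lies at or near the right of most rows and WT replicate 2 (blue squares) at or near the left. Cox8c was listed at 0 in every library and has no point.

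Mean levels of complex I genes, whose product is the NADH dehydrogenase, ran from 13.1 to 362 FPKM over the 6 libraries. Ndufa3, an accessory subunit of the membrane arm, was the most abundant, at 357, 445 and 355 FPKM in 5xFAD against 358, 239 and 420 FPKM in WT. Ndufb9 and Ndufb4, also accessory subunits of the membrane arm, came next, with 186 to 224 and 162 to 193 FPKM in 5xFAD, against 163 to 240 and 154 to 225 FPKM in WT. Ndufa11, another membrane arm subunit, was the least abundant, at 13.2, 12.5 and 11.1 FPKM in 5xFAD against 15.6, 12.3 and 14.2 FPKM in WT. In all 4 genes the groups overlapped. The 7 core subunits, which between them hold the flavin and the iron-sulphur clusters and have bacterial counterparts, had a median level of 67.1 FPKM, and the 28 accessory subunits 90.4 FPKM. Ndufs1, the largest core subunit, was at 54.1, 44.4 and 47.7 FPKM in 5xFAD against 59.9, 46.8 and 50.5 FPKM in WT.

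Complex II, succinate dehydrogenase, also works in the citrate cycle and has no subunit encoded in mitochondrial DNA. Its levels were 126, 117 and 124 FPKM in 5xFAD against 132, 124 and 123 FPKM in WT for Sdha, the flavoprotein. Sdhb, the iron-sulphur subunit, was at 64.8, 65.0 and 63.7 FPKM in 5xFAD against 76.9, 65.9 and 74.1 FPKM in WT, so that its highest 5xFAD value lay just below the lowest WT value. Of the membrane anchors, Sdhc was at 47.3, 50.3 and 50.4 FPKM in 5xFAD against 50.6, 47.9 and 49.4 FPKM in WT. Sdhd, the other anchor, was the lowest of the complex, at 33.0, 39.8 and 39.0 FPKM in 5xFAD against 37.5, 40.6 and 46.2 FPKM in WT.

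Complex III, the cytochrome bc1 complex, was led by small subunits. Uqcr11 was at 353, 305 and 227 FPKM in 5xFAD against 337, 198 and 320 FPKM in WT. Uqcrh, the hinge protein, was at 266, 281 and 252 FPKM in 5xFAD against 295, 195 and 277 FPKM in WT, and Uqcr10 at 182, 174 and 146 FPKM in 5xFAD against 177, 129 and 180 FPKM in WT. The lowest levels belonged to electron carriers. Cyc1, cytochrome c1, was at 55.3, 59.0 and 55.5 FPKM in 5xFAD against 59.3, 57.3 and 59.4 FPKM in WT, and Uqcrfs1, the Rieske iron-sulphur protein, averaged 60.3 ± 5.52 FPKM in 5xFAD and 58.5 ± 7.09 FPKM in WT (SD, n = 3 each).

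Complex IV, cytochrome c oxidase, held the most abundant of the subunit genes matched by name. Cox6c, a small membrane subunit, was at 745, 706 and 607 FPKM in 5xFAD against 864, 474 and 741 FPKM in WT. Cox8a was at 481, 549 and 485 FPKM in 5xFAD against 520.1, 470.4 and 570 FPKM in WT, and Cox7c at 530, 572 and 461 FPKM in 5xFAD against 584, 389 and 528 FPKM in WT. These 3 genes overlapped between the genotypes. Cox8c, a testis paralog, was listed at 0 in all 6 libraries.

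The complex V genes matched by name were led by Atp5b, the catalytic beta subunit of the ATP synthase. It was at 450, 399 and 421 FPKM in 5xFAD against 487, 410.0 and 429 FPKM in WT. Atp5k and Atp5l, subunits e and g of the membrane part, followed. Atp5k was at 332, 347 and 322 FPKM in 5xFAD against 444, 179 and 431 FPKM in WT, and Atp5l at 312, 335 and 292 FPKM in 5xFAD against 362, 270 and 343 FPKM in WT. Atp5k had a single low value, in WT replicate 2. Atp5g2 was the lowest of these matches, at 94.4, 107 and 86.4 FPKM in 5xFAD against 84.4, 81.9 and 90.7 FPKM in WT. Usmg5, outside the name rule, was higher than Atp5b in each library. It was at 604, 567 and 505 FPKM in 5xFAD against 713, 455 and 613 FPKM in WT.

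Several subunits come as paralogs, of which one usually serves most tissues and the other is made in muscle, testis or a few cell types. The common form dominated each such pair in the hippocampus. Cox4i1 gave 99.6% to 99.8% of the summed FPKM of Cox4i1 and Cox4i2 in 5xFAD and 99.8% to 99.9% in WT. Cox6a1 gave 98.5% to 99.3% of its pair in 5xFAD and 98.8% to 99.5% in WT, and Cox6b1 99.1% to 99.6% in 5xFAD and 99.2% to 99.5% in WT. Ndufa4 gave 99.5% to 99.6% of its pair with Ndufa4l2 in both genotypes. Of the summed FPKM of Cox7a1, Cox7a2 and Cox7a2l, Cox7a2 gave 54.0% to 56.2% in 5xFAD and 51.8% to 55.6% in WT. Cox7b2, a testis paralog, was at 0.937, 0 and 1.46 FPKM in 5xFAD against 0.238, 0.606 and 0.248 FPKM in WT.

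The muscle paralogs Cox7a1 and Cox8b varied most among WT libraries. Cox7a1 was at 5.39, 4.80 and 5.86 FPKM in 5xFAD against 14.3, 1.42 and 4.72 FPKM in WT. Cox8b was at 1.65, 4.91 and 4.49 FPKM in 5xFAD against 19.7, 0 and 1.21 FPKM in WT. Both were highest in WT replicate 1 and lowest in WT replicate 2. All 6 choroid plexus markers were also highest in WT replicate 1, and their next highest sum was in the library labelled 5xFAD replicate 3. The 5 muscle markers summed to 5.89, 6.76 and 7.61 FPKM in 5xFAD against 6.63, 4.92 and 4.59 FPKM in WT. Ckm, muscle creatine kinase, was listed at 0 in 5 of 6 libraries. The part of either tissue in the paralog levels was not tested.

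ATP synthase subunit c, which forms the rotating ring, is encoded by 3 genes that yield the same mature protein with different import sequences. Atp5g3 contributed 49.2%, 47.2% and 51.4% of their summed FPKM in 5xFAD against 53.5%, 52.1% and 50.2% in WT. Atp5g1 contributed 26.2% to 27.7% in 5xFAD and 26.0% to 28.1% in WT. Atp5g2 contributed 23.1%, 26.6% and 22.2% in 5xFAD against 18.8%, 21.9% and 21.7% in WT. The 3 shares of Atp5g2 in 5xFAD all lay above those in WT, with 0.316 percentage points between the lowest 5xFAD and the highest WT share. In exact two-sided permutation tests p was 0.10 for Atp5g2, the smallest that 3 against 3 libraries can give, 0.20 for Atp5g3 and 0.80 for Atp5g1. Adjusted over these 3 tests by Benjamini-Hochberg, the exact p-values were 0.30, 0.30 and 0.80.

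**Figure D2:**
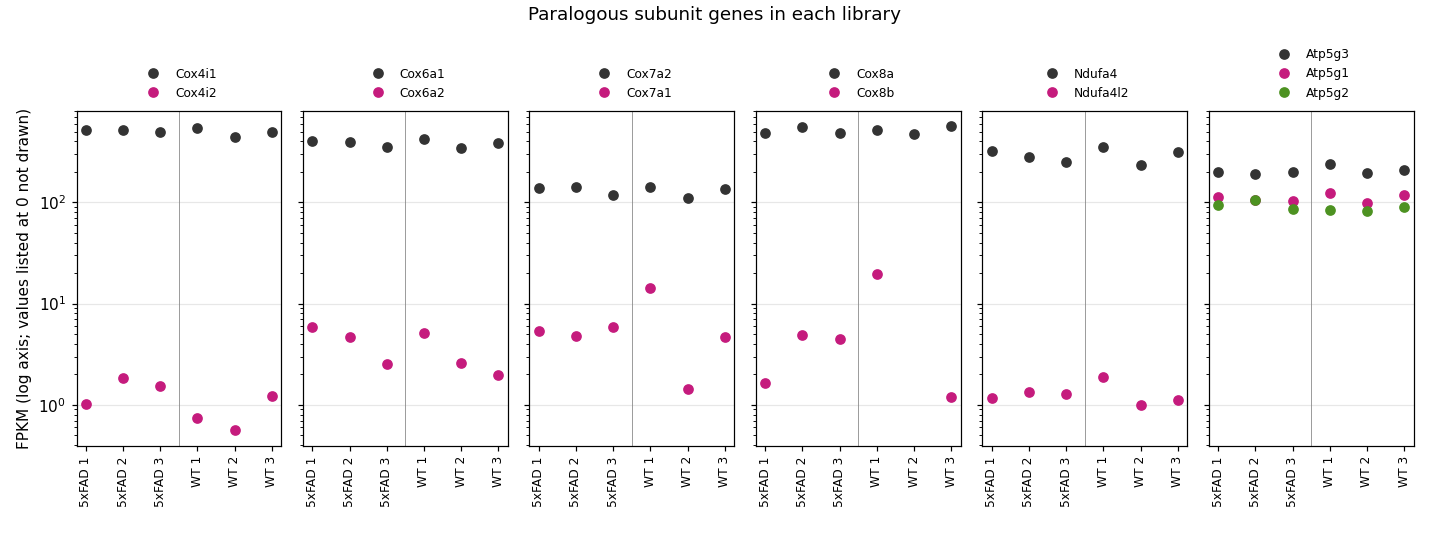
FPKM of paralogous subunit genes in each CG library on a log axis, 5xFAD libraries left of the grey line and WT libraries right of it. The pairs Cox6b1 with Cox6b2 and Cox7b with Cox7b2 are not drawn. The common forms drawn (dark) stay at 111 FPKM or above in every library, whereas Cox7a1 and Cox8b (pink) peak in WT replicate 1 at 14.3 and 19.7 FPKM. Cox8b was listed at 0 in WT replicate 2 and is not drawn there.

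The comparison of 5xFAD with WT asked whether any subunit gene differed between the genotypes. None was called by the test used. With limma over all 14500 genes with a mean of at least 0.5 FPKM, 0 of the 84 name matches tested were called at a Benjamini-Hochberg adjusted p under 0.05, and 0 had an unadjusted p under 0.05. Over all genes tested, 0.00690% were called and 2.92% had an unadjusted p under 0.05. Of the 1394 genes of at least 50 FPKM, nearer the level of the subunit genes, limma gave 19 an unadjusted p under 0.05. Cox8c was the 1 match left out by the filter. Without the library labelled 5xFAD replicate 3, limma called 1.20% of 14527 genes but 0 of the 83 matches tested. Again 0 matches had an unadjusted p under 0.05, which 5.91% of genes had. Among the 1394 genes of at least 50 FPKM, limma then called 13 and gave 55 an unadjusted p under 0.05. The log2 differences of the 84 matches lay between -0.18 and 0.43 on the log2(FPKM + 1) scale, with standard errors from 0.078 to 0.97 and a median of 0.14.

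Groups that did not overlap were equally few. Of 82 subunit genes tested, 0 had every 5xFAD value above every WT value, against 2.92% of all genes tested. Genes of at least 50 FPKM rarely had this, 8 of 1394. In 3 of the 82 subunit genes, Sdhb, Uqcrc2 and Atp5o, every 5xFAD value lay below every WT value. This held for 2.74% of all genes tested and for 49 of the 1394 genes of at least 50 FPKM. For 72 of the 82 genes (87.8%), the difference between the group means was under 1 SD of the WT libraries. This also held for 73.7% of all genes tested and 78.0% of those of at least 50 FPKM.

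The smallest p-values per complex show the size of what was seen. In complex I they belonged to Ndufa11, with a log2 difference of -0.17 (SE 0.11), Ndufa2, an accessory subunit of the matrix arm (0.14, SE 0.13), and Ndufs3, a core subunit (-0.14, SE 0.13). Without the library labelled 5xFAD replicate 3 these 3 differences were -0.11, 0.20 and -0.10. In complex II they belonged to Sdhb (-0.16, SE 0.088), Sdhd (-0.15, SE 0.11) and Sdha (-0.043, SE 0.084). Without that library these were -0.15, -0.18 and -0.054. In complex III the smallest p-values over the 6 libraries belonged to Uqcrc2, a core protein (-0.13, SE 0.090), Uqcrq (0.21, SE 0.16) and Cyc1 (-0.050, SE 0.078). Of complex V, Atp5g2 differed by 0.16 (SE 0.10), Atp5o, the stalk protein that links both parts of the enzyme, by -0.11 (SE 0.090), and Atp5g3 by -0.12 (SE 0.10). The limma adjusted p over the 6 libraries of each of these 12 genes rounded to 1.00.

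Complex IV held the smallest p of the family. Cox4i2, the paralog known from lung and from brain pericytes, was at 1.02, 1.84 and 1.54 FPKM in 5xFAD against 0.737, 0.561 and 1.22 FPKM in WT. The groups overlapped through WT replicate 3 and 5xFAD replicate 1, and the log2 difference was 0.43 (SE 0.19, limma unadjusted p = 0.0576, adjusted p = 1.00). The 4 vessel markers summed to 26.0, 18.9 and 18.7 FPKM in 5xFAD against 21.7, 19.5 and 21.5 FPKM in WT. Pdgfrb, the pericyte marker among them, was at 5.97, 5.25 and 5.35 FPKM in 5xFAD against 5.54, 4.37 and 4.52 FPKM in WT. Its log2 difference was 0.17 (SE 0.12), beside 0.13 (SE 0.14) for Cldn5, -0.056 (SE 0.19) for Flt1 and -0.35 (SE 0.18) for Pecam1. The part of vessel cells in Cox4i2 was not tested. Cox5a, a matrix-side subunit, followed at 116, 111 and 115 FPKM in 5xFAD against 134, 112 and 129 FPKM in WT (log2 difference -0.13, SE 0.095). After it came Cox6a2, the heart and skeletal muscle form, at 5.93, 4.66 and 2.55 FPKM in 5xFAD against 5.14, 2.61 and 1.96 FPKM in WT (0.36, SE 0.32).

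By complex, the median log2 difference was 0.027 for complex I, -0.095 for complex II, 0.045 for complex III, 0.024 for complex IV and -0.043 for complex V, beside -0.011 over all genes tested. Positive differences numbered 22 of 35 in complex I, 1 of 4 in complex II, 6 of 9 in complex III, 12 of 19 in complex IV and 5 of 15 in complex V. Without the library labelled 5xFAD replicate 3, the medians were 0.069, -0.10, 0.12, 0.065 and 0.00037 in the same order, with 25 of 35, 0 of 4, 6 of 9, 14 of 18 and 8 of 15 positive, so that complex V changed sign. Complex V was also positive without WT replicate 1, complexes I, III and IV were negative without WT replicate 2, and complex II was negative in each case. Without WT replicate 1, the median of the 82 subunit genes was 0.11, with 65 of 82 positive. Without WT replicate 2, it was -0.12, with 73 of 82 negative. In the first case limma gave 3 matches an unadjusted p under 0.05 (4.02% of all genes), the low-level paralogs Cox6a2, Cox7a1 and Cox8b. In the second it gave 4 (2.72% of all genes), which were Atp5k, Cox5a, Ndufs3 and Sdhb. No match passed the adjusted threshold in either case.

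**Figure D3:**
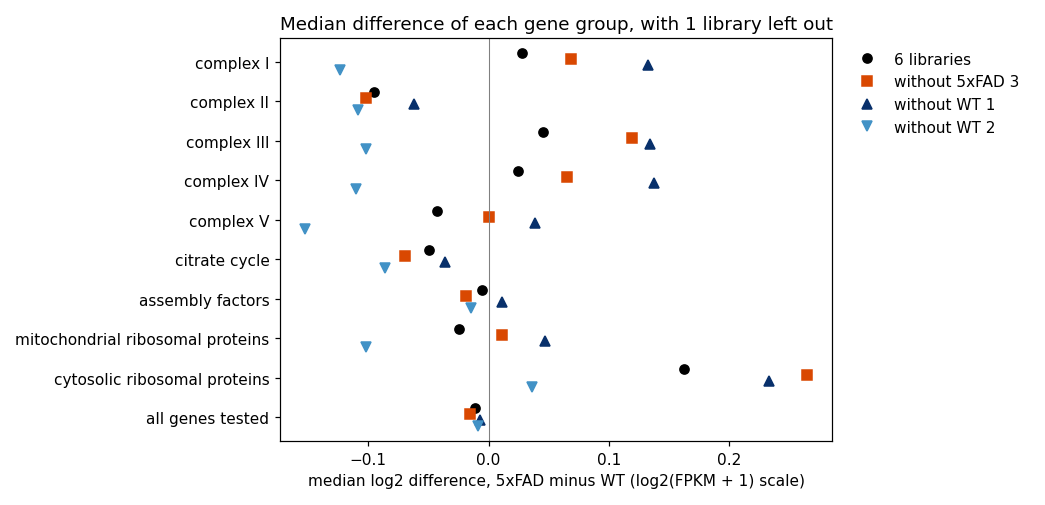
Median log2 difference, 5xFAD minus WT, of each complex and of related gene groups, over 6 CG libraries and with 1 library left out (marker shape). Leaving out WT replicate 2 puts all 5 complexes below 0 and leaving out WT replicate 1 puts 4 of 5 above it, while the median of all genes tested stays near 0.

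Differences between WT libraries were wider than those between genotypes. In medians over the subunit genes of log2 distance from the WT mean, the 5xFAD replicates 1 to 3 stood at 0.072, 0.013 and -0.079, and the WT replicates 1 to 3 at 0.18, -0.25 and 0.061. From WT replicate 1 to WT replicate 2, the median difference was -0.42 over subunit genes and -0.0050 over all genes tested. In 59 of 82 subunit genes the WT libraries stood in the order replicate 1, replicate 3, replicate 2, an order chosen after the values were seen and found in 23.6% of all genes tested. WT replicate 2 was the lowest of all 6 libraries for 60 of 82 subunit genes (73.2%), and for 21.2% of all genes tested.

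This spread was uneven among members. Of the 75 subunit genes of at least 10 FPKM, Atp5k was 2.48 times and Ndufa5, an accessory subunit of the matrix arm, 2.35 times as high in WT replicate 1 as in WT replicate 2. Atp5j (coupling factor 6) and Uqcrb were 1.96 and 1.92 times as high. Near equality held for Cyc1 (1.03), Sdhc (1.06), Sdha (1.07), Atp5g2 (1.03) and Cox7a2l (0.971). The median difference between these libraries was -0.52 in complex I, -0.45 in complex III, -0.53 in complex IV and -0.35 in complex V, but -0.086 in the 4 genes of complex II.

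**Figure D4:**
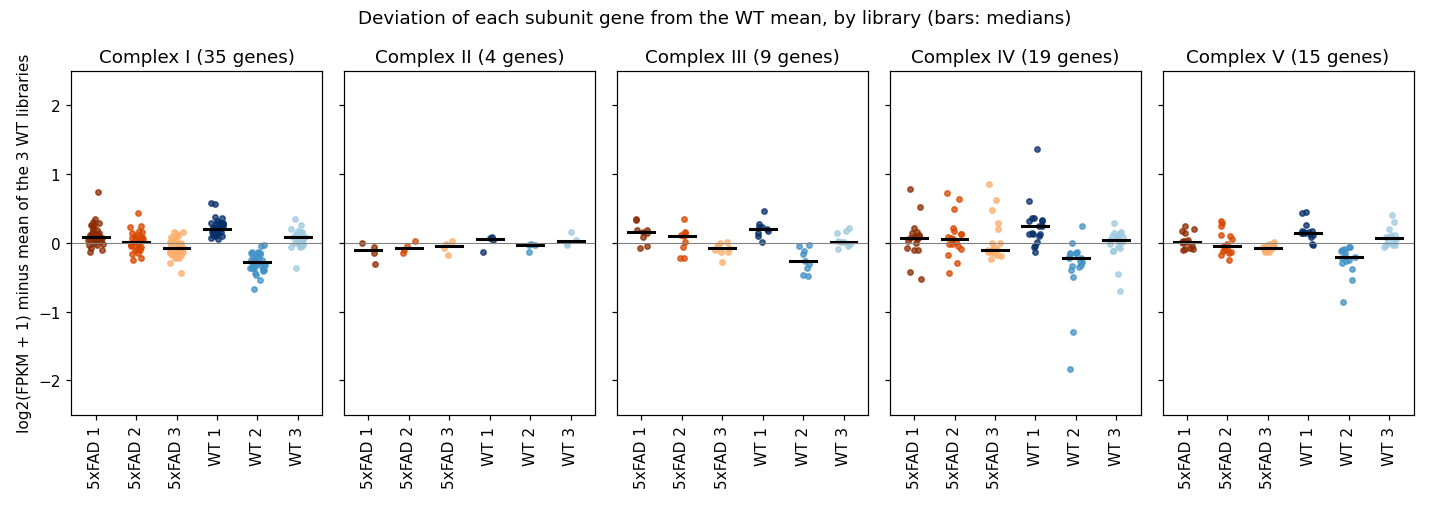
Log2(FPKM + 1) of each subunit gene minus its mean over the WT libraries, by CG library and complex, with bars at the medians. In complexes I, III, IV and V the bars of WT replicate 1 lie at 0.14 to 0.24 and those of WT replicate 2 at -0.28 to -0.20, with the 5xFAD bars between them, whereas the complex II bars stay within 0.11 of the WT mean.

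Other gene groups moved with these libraries to differing degrees. Between WT replicate 1 and WT replicate 2, the median difference was -0.42 over 75 cytosolic ribosomal protein genes and -0.32 over 77 mitochondrial ribosomal protein genes, but -0.078 over 46 assembly factors. For the 10 neuronal markers the median difference was 0.12, and their sums were 3840, 3838 and 3957 FPKM in 5xFAD against 3882, 4048 and 4182 FPKM in WT. Whether depth or the makeup of the tissue takes part in the spread of the subunit genes was not tested.

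Genes that build and feed the complexes were examined beside the subunits. None of these genes was called by limma over the 6 libraries or with the library labelled 5xFAD replicate 3 alone left out. Of 46 assembly factors tested, 21 had positive and 25 negative differences (median -0.0054), with 2 at an unadjusted p under 0.05. Without WT replicate 1 the split was 25 positive and 21 negative (median 0.011). It was 19 positive and 27 negative without the library labelled 5xFAD replicate 3 (median -0.019) and without WT replicate 2 (median -0.015). Surf1, a complex IV assembly factor, was at 26.7, 29.0 and 25.9 FPKM in 5xFAD against 24.1, 19.2 and 23.0 FPKM in WT (log2 difference 0.29, SE 0.11). It was the 1 of the 46 with all 3 values above those in WT, against 2.92% of all genes tested, but its limma adjusted p was 1.00. Nubpl, which delivers iron-sulphur clusters to complex I, was at 3.42, 2.62 and 2.74 FPKM in 5xFAD against 3.30, 4.55 and 3.99 FPKM in WT (-0.33, SE 0.14), with overlapping groups.

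Of 16 citrate cycle and pyruvate dehydrogenase genes, 14 had negative differences (median -0.050), as had 54.2% of all genes tested. The median of these 16 genes was 60.4 FPKM, and negative differences were more common at high levels. They numbered 904 of the 1394 genes of at least 50 FPKM (median -0.033). Without WT replicate 1, 9 of the 16 were negative (median -0.036), against 51.7% of all genes and 842 of the 1394 (median -0.038). Without the library labelled 5xFAD replicate 3 it was 14 of 16 (median -0.069, beside -0.015 over all genes and -0.042 over the 1394). Without WT replicate 2 it was 15 of 16 (median -0.086, beside -0.0087 over all genes and -0.038 over the 1394). The range of their summed FPKM in 5xFAD, 1015 to 1097, overlapped that in WT, 1065 to 1171. Idh3a, the catalytic subunit of NAD-dependent isocitrate dehydrogenase, was at 64.9, 66.2 and 69.7 FPKM in 5xFAD against 77.9, 73.7 and 71.8 FPKM in WT (-0.15, SE 0.081). Its groups did not overlap, and it did not pass (limma adjusted p = 1.00). In 3 of the 16 genes, Idh3a among them, every 5xFAD value lay below every WT value, against 2.74% of all genes tested. In 0 of the 16 every 5xFAD value lay above every WT value, against 2.92%. Of 14 biogenesis and mitochondrial DNA genes, 9 had negative differences (median -0.026), and 5 without WT replicate 2 (median 0.0091). The number stayed at 9 without the library labelled 5xFAD replicate 3 (median -0.041) and without WT replicate 1 (median -0.077). Tfb1m, a methyltransferase of mitochondrial ribosomal RNA, was at 2.98, 2.61 and 2.78 FPKM in 5xFAD against 3.27, 3.13 and 3.40 FPKM in WT. It was the 1 of these 14 genes with every 5xFAD value below every WT value. Of 14 carriers and partners tested, 11 had negative differences (median -0.066). The count was 7 of 14 without the library labelled 5xFAD replicate 3 (median -0.021) and 5 of 14 without WT replicate 1 (median 0.034). It was 12 of 14 without WT replicate 2 (median -0.13). Ucp2, a carrier of the inner membrane, was at 16.2, 18.1 and 8.11 FPKM in 5xFAD against 12.1, 6.21 and 7.95 FPKM in WT. It differed by 0.61 (SE 0.31) over the 6 libraries (limma adjusted p = 1.00), and its limma adjusted p was 0.208 without the library labelled 5xFAD replicate 3. With WT replicate 1 left out as well, a choice made after the data were seen, limma called it at an adjusted p of 0.0128 (log2 difference 1.18, SE 0.16). Of 14412 genes in both that fit and the 6-library fit, 174 were called. With WT replicate 2 left out in place of WT replicate 1, limma called 0 of the 14 carriers and partners. The 9 microglia markers summed to 552, 516 and 143 FPKM in 5xFAD against 132, 154 and 144 FPKM in WT, and their part in the Ucp2 values was not tested.

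Of the matches set apart, Atp5s was at 6.43, 7.34 and 8.36 FPKM in 5xFAD against 7.51, 7.53 and 7.84 FPKM in WT. Atp5sl averaged 16.2 ± 1.64 FPKM in 5xFAD and 16.3 ± 1.44 FPKM in WT (SD, n = 3 each). In both genes the WT values lay inside the 5xFAD range.

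Promoter sequences were searched for 3 motifs, and 29 of 66 subunit genes with a window held at least 1 of them. Nuclear respiratory factor 1 (NRF1) is known to bind promoters of many respiratory chain genes, and GABP and YY1 are further regulators named for them. RefSeq promoter windows of GRCm38.p6, 250 bases before to 50 after a gene's start, matched 66 of the 83 subunit genes by symbol. The NRF1 motif, searched on both strands as GCGCA, any base and then GCGC, was found in 17 of 66 (25.8%), against 10.7% of 10939 matched genes tested and 5.19% of all 27025 genes with a window. The YY1 motif, searched as AAGATGGC on both strands, was found in 9 of 66 (13.6%), against 4.89% of matched genes tested. The GABP motif, CCGGAAGT on both strands, was found in 5 of 66 (7.58%), against 8.12% of matched genes tested. Matches to NRF1 were in 7 of 31 genes of complex I, 2 of 3 of complex II, 1 of 5 of complex III, 1 of 14 of complex IV and 6 of 13 of complex V. A match describes the letters in the window and is not a binding site.

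The stretches around an NRF1 match, 40 bases each, are shown for the most abundant gene of each complex that has one, to show the shared letters. Capitals mark the match, 5′ to 3′ on the gene's strand in GRCm38.p6.
Ndufb4, chr16:37654535-37654574, minus strand: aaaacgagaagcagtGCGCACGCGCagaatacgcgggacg
Sdha, chr13:74350314-74350353, minus strand: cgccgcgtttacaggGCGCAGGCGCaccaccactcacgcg
Uqcrc1, chr9:108936638-108936677, plus strand: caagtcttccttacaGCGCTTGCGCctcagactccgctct
Cox6a1, chr5:115349096-115349135, minus strand: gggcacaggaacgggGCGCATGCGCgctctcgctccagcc
Atp5k, chr5:108434425-108434464, minus strand: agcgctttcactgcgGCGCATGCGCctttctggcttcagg
Atp5k and Sdha both hold the motif but differed in their spread between WT libraries (2.48 and 1.07 times), so their 250 bases before the start are shown as well.
Atp5k, chr5:108434400-108434649, minus strand: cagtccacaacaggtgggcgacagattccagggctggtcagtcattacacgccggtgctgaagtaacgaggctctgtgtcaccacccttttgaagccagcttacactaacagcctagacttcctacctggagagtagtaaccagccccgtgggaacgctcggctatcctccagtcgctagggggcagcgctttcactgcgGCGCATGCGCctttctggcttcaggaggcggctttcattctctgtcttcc
Sdha, chr13:74350241-74350490, minus strand: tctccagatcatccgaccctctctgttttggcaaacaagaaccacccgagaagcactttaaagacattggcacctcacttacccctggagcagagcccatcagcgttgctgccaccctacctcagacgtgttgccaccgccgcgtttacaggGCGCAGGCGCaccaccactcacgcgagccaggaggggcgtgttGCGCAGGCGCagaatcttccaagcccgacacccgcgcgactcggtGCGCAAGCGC
Sdha has 3 matches there and Atp5k has 1. The pair was picked after its values were seen, and the part of the motif in the spread between WT libraries was not tested. Genes with an NRF1 match had a median log2 difference between 5xFAD and WT of -0.0045 (17 genes), and those without one had 0.026 (49 genes). Between WT replicate 1 and WT replicate 2 their median differences were -0.32 and -0.45.

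The AT libraries, in which the design names an A-tailing preparation with RNase R, an enzyme that removes linear RNA, held few circular RNAs of these genes. Junctions were listed for 7 of the 84 matches tested (8.33%), against 2934 of all 14500 genes tested (20.2%). Among genes of at least 50 FPKM, the share was 6 of 70 matches (8.57%) against 30.1% of 1394 genes. The 7 hosts carried 11 of the 7025 junctions listed, with 2773 of 3364219 recovered junction reads over the 6 libraries. Their median mean signal was 5.66, against 8.32 over all junctions listed. The table lists only junctions with signal in all 3 libraries of at least 1 group.

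Atp5c1, the gamma subunit that turns inside the ATP synthase, gave the most abundant of them, at chr2:9980622-9985938 (mm9, as the table gives it). Its signal was 6.93, 73.7 and 69.1 in 5xFAD against 45.3, 65.6 and 69.9 in WT. The low value in 5xFAD replicate 1 rested on 8 reads, in the shallowest AT library, of 191408 junction reads, against 326 and 289 reads in 5xFAD replicates 2 and 3. The other AT libraries held 438790 to 695539 junction reads. Without 5xFAD replicate 1 the log2 difference of Atp5c1 was 0.26, while it was -0.80 (SE 0.67) with all 6 libraries, neither past limma's threshold.

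Next came Atp5o (chr16:91926703-91927227), at 31.2, 17.6 and 20.1 in 5xFAD against 19.1, 21.9 and 9.59 in WT. The longer junction of Sdhc (chr1:173066123-173075943) had the most even signal, at 10.4, 10.8 and 10.8 in 5xFAD against 11.2, 13.7 and 11.9 in WT. All 3 of its 5xFAD values were below those in WT, as in 6.65% of junctions listed, and 0 of the 11 had all 5xFAD values above WT, as in 4.43%. The authors' deposited table gives it a p of 0.0296 and an adjusted p of 0.304, and limma gave a log2 difference of -0.18 (SE 0.48). The shorter Sdhc junction shares its first coordinate, at chr1:173066123-173068886, and had a signal of 2.03 to 3.46 in 5xFAD and 1.87 to 5.24 in WT.

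The junctions of complex I hosts had mean signals of 2.51 to 9.85 over the AT libraries. The junction of Ndufv2, a core subunit that carries an iron-sulphur cluster (chr17:66436742-66438833), averaged 9.07 ± 2.60 in 5xFAD and 10.6 ± 2.30 in WT (SD, n = 3 each). The Ndufs3 junction (chr2:90738540-90743101) was at 1.73, 7.91 and 0.478 in 5xFAD against 16.5, 3.65 and 3.74 in WT. A single library in each group set its mean, 5xFAD replicate 2 and WT replicate 1. Ndufs1 had 3 junctions, at chr1:63194969-63195145, chr1:63210240-63211604 and chr1:63210240-63212941, of which the last 2 share a coordinate. The last of these was at 2.60, 3.39 and 4.30 in 5xFAD against 3.37, 0.228 and 1.17 in WT, on 1 to 18 reads per library.

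Ndufa10, an accessory subunit, had a pair of junctions that share their end coordinate. The one at chr1:94348587-94367562 was at 9.53, 2.03 and 7.65 in 5xFAD against 6.74, 6.38 and 3.27 in WT. The one at chr1:94356956-94367562 was at 3.46, 2.03 and 4.30 in 5xFAD against 0, 0.684 and 5.85 in WT. A count of 0 in WT replicate 1 allows a signal of up to 1.12 there (3 reads, counting error only).

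**Figure D5:**
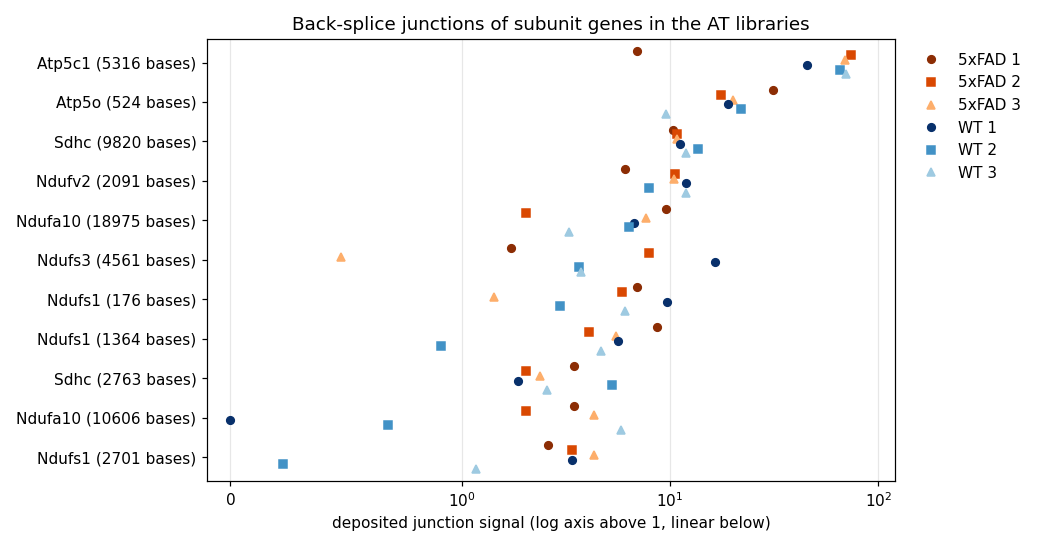
Deposited signal of the 11 back-splice junctions of subunit genes in the AT libraries, labelled by host gene and by end minus start coordinate, with 5xFAD libraries in orange and WT libraries in blue. The axis is logarithmic above 1 and linear below. The Atp5c1 junction stands highest except in 5xFAD replicate 1, where it is at 6.93, and the groups overlap for every junction but the longer one of Sdhc.

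None of the 11 junctions was called between 5xFAD and WT by the tests used. Limma called 0 of 11, with 0 at an unadjusted p under 0.05, and called 0 of all 7025 junctions, of which 5.68% had an unadjusted p under 0.05. On the recovered reads, edgeR's quasi-likelihood test called 0 of 11 and 0 of 7025, and DESeq2 called 0 of 11 and 1 of 7025 (0.0142%). The authors' deposited table has 264 of 7025 junctions (3.76%) at an adjusted p under 0.05, and 0 of these 11. Of the 11 log2 differences, 5 were positive and 6 negative, with a median of -0.16 beside -0.056 over all junctions. With 0 to 326 reads per junction and library, the limma standard errors of these log2 differences were 0.47 to 0.79. The part of read depth in them was not tested.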

How the data were processed

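The CG table holds FPKM per gene as deposited by the authors, and the AT table holds the authors' signal per junction, with their own log2 ratio and p-value per junction, per the file headers. The submitters' processing notes name build mm9 and DESeq. The aligner, the quantifier, the annotation and any use of strand were not stated in what was used here. Per the labels' protocols, rRNA was depleted with Ribo-Zero and libraries were made with a NEBNext kit. In each AT library, 100% of signal values came to a whole number (tolerance 0.01) when divided by the lowest value above 0. These quotients were taken as reads, 191408 to 695539 per library.

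Tests used limma 3.58.1 (R 4.3.3) on log2(value + 1) with its intensity trend. They were two-sided, took features averaging 0.5 or more, and were adjusted by Benjamini-Hochberg over all of them at a threshold of 0.05. A fold change on this scale understates that of low genes. edgeR 4.0.16 and DESeq2 1.42.0 were run on recovered AT reads only. The fits were tested on simulated data with independent noise and changes larger than any CG difference of the name matches. That test does not show how often smaller changes would be called. FPKM is relative to each library's total. CG and AT were tested separately. Relative CG depth came from the most frequent ratio of low FPKM values to those of WT replicate 1.

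Members and gene lists were chosen with earlier results of these data known. The genes named are the 3 highest and the lowest of each complex, the 3 with the smallest p, paralog sets, junction hosts, and up to 3 of each related list. Ribosomal protein groups, Ndufs1, Uqcrfs1, Usmg5, the single vessel markers and the members with the widest and narrowest WT spread were named after their values were seen. Near-identical copies and pseudogenes of these genes could share reads. Alternatives were another pseudocount, filter, scaling, variance model, library weights, a replicate block and leaving out libraries.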

Additional observations from a re-analysis of the deposited data

How the results depend on the processing

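No name match was called under any of the 16 CG alternatives run, and no member junction under any of the 12 AT alternatives. Without 1 replicate each, the CG count of called genes ran from 1 to 174, the median difference of all subunit genes from -0.12 to 0.11, that of complex I from -0.12 to 0.13, of complex II from -0.11 to -0.062, of complex III from -0.10 to 0.13, of complex IV from -0.11 to 0.14 and of complex V from -0.15 to 0.038. The CG count was 174 of 14527 genes without the library labelled 5xFAD replicate 3, and 172 over the genes also in the 6-library fit. Over such genes it was 174 with WT replicate 1 also left out and 106 with WT replicate 2 also left out. Both double choices were made after seeing the data. In those fits the subunit median was 0.15 without WT replicate 1 and -0.085 without WT replicate 2. Some junctions changed sign with 1 AT library left out. Without 1 replicate each, the differences ran from -1.35 to 0.26 for Atp5c1, from -0.29 to 0.61 for the longer junction of Ndufa10, from -0.77 to 0.14 for the shortest of Ndufs1, from -0.40 to 0.013 for Ndufv2 and from -0.40 to 0.16 for the shorter of Sdhc. The longer Ndufa10 junction was at -0.084 with quantile normalization and at 0.060 as reported. DESeq2 called 1 AT junction. The cause of these changes was not tested. Whether replicate numbers pair the samples was not settled. Same-numbered CG libraries deviated together with correlations of 0.42, 0.28 and 0.040, and unlike-numbered ones with -0.36 to 0.15. For AT these correlations were 0.068, 0.088 and 0.040, against -0.11 to 0.081 for unlike numbers. With the replicate block limma called 1 CG gene, 0 matches, 0 AT junctions and 0 member junctions. The part of read depth in the absence of calls was not tested.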
